A study of Mus musculus with 6 samples.

Results

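Wnt ligand genes, the genes of their Frizzled receptors and co-receptors, and those of the secreted antagonists that hold Wnts or receptors in check were read in mouse skin tumours. The set was defined by gene name: every non-control probe whose gene name is Wnt, Fzd, Sfrp or Dkk followed by a digit, or is Wif1, Frzb, Lrp5, Lrp6, Ror1, Ror2 or Ryk. It holds 44 genes on 63 probes, of 37008 distinct names on the array: 19 Wnt ligands, 15 receptors and co-receptors, 6 antagonists that bind Wnts (Sfrp1, Sfrp2, Sfrp4, Sfrp5, Frzb and Wif1) and 4 Dickkopf genes.

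The tumours came from male mice of 2 genotypes, P2ry6-/- and P2ry6+/+, with 3 tumours and 3 one-colour Agilent arrays each. The gene P2ry6 makes a cell-surface receptor that responds to UDP, a nucleotide released by cells. The carcinogen DMBA (195 nmol) had been put once on the shaved backs of all mice, 12 per genotype, followed from the next week to week 22 by the tumour promoter TPA (16 nmol, on 2 days of each week), so no untreated skin is among the samples. The labels give neither the strain, the mice's age nor the part of P2ry6 that was removed, and they number the tumours without saying whether 1 mouse gave more than 1 of them, and a p-value here measures only the spread between these samples.

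Wnts are lipid-modified secreted proteins. At the cell surface they engage a Frizzled, a receptor with 7 membrane passes, and with the co-receptors Lrp5 or Lrp6 they keep beta-catenin from being broken down, so that it reaches the nucleus and joins the factors of the Tcf/Lef family. Other Wnts, Wnt5a and Wnt11 among them, mainly use Frizzleds with Ror1, Ror2 or Ryk and act on cell shape and polarity instead. Sfrp proteins, Frzb and Wif1 bind Wnts outside the cell, and Dickkopf proteins such as Dkk1 block Lrp5 and Lrp6. In skin, Wnt signals are known for starting hair follicles and for renewing them in each hair cycle.

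Values are log2 of the signal minus the array's 75th percentile, so 0 lies at that percentile, and a probe counts as measured on an array where it was well above background. P2ry6 read 0.57, 0.70 and 0.45 in the tumours labelled knockout and 0.38, 0.33 and -0.21 in those labelled wild-type, so it was not lower in the labelled knockout tumours; the probe may lie outside the removed part and then checks nothing, and every direction here follows the labels. Of the non-control spots, 54.2% to 59.4% were well above background. All 13 keratinocyte markers that were listed, Krt5, Krt14 and Trp63 among them, were well above background on all 6 arrays. Skeletal muscle markers averaged -4.30 to -3.93 in the labelled knockout tumours and -1.05 to 3.40 in the labelled wild-type tumours, with all 10 lower, and adipocyte markers averaged -2.16 to -1.84 against 0.83 to 1.87, with 6 of 7 lower. Labelled wild-type tumour 2 had the highest muscle, fat, hair follicle and sebaceous averages of the 6. In such bulk tumour RNA, fewer cells of a type and less RNA per cell cannot be told apart.

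The start regions of 4 Frizzled genes are shown because these Frizzleds read lower in the labelled knockout tumours at an unadjusted p under 0.05 (values follow), and their start regions can be set side by side for shared features. Each line gives the 250 bases before the RefSeq start of the gene on GRCm38.p6, read along the gene's strand, with GC boxes in capitals (GGGCGG, or its reverse complement CCGCCC; neighbouring matches may overlap and run together). The table held 6 of the 10 Frizzled genes, and the windows of Fzd9 and Fzd10 are counted but not shown.

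Fzd1 (chr5:4758217-4758466, minus strand): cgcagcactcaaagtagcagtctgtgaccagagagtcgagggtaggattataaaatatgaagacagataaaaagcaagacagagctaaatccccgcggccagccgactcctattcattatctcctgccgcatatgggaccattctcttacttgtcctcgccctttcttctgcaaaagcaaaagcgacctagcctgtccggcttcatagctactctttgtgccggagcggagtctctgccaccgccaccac
Fzd4 (chr7:89404116-89404365, plus strand): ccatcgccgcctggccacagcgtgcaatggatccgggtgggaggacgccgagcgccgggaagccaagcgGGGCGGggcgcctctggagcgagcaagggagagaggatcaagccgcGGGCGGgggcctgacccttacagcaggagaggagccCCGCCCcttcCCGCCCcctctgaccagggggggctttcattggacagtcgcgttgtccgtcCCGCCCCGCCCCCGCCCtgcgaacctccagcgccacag
Fzd5 (chr1:64737751-64738000, minus strand): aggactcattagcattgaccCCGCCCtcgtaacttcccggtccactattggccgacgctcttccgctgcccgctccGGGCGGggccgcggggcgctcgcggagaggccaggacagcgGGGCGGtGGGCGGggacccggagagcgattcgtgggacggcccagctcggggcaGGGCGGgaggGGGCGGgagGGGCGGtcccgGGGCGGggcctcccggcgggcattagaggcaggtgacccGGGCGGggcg
Fzd7 (chr1:59481897-59482146, plus strand): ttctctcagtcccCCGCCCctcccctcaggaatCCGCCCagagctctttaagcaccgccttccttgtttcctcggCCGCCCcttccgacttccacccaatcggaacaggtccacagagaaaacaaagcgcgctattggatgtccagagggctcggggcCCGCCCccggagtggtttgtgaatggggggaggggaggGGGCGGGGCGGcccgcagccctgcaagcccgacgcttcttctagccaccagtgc

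Fzd5, Fzd4 and Fzd7 have 9, 7 and 6 GC boxes in this window and Fzd1 has 0. Fzd9 and Fzd10 have 1 each, and the windows of Wnt ligands ran from 0 (Wnt10b) to 9 (Wnt3a), so many GC boxes are not particular to these Frizzleds. At least 1 GC box stood in 5 of the 6 Frizzled windows and in 25 of 33 windows over all members in the table, against 32.7% of 32851 windows of all genes. GC content had a median of 74.6% over the Frizzled windows, 66.8% over all member windows and 52.4% over all windows. The Tcf/Lef motif CTTTGAT, searched on both strands, was found in 0 of the 6 Frizzled windows, in 2 of 33 member windows (1 of Wnt11 and 1 of Wnt5b) and in 3.21% of all windows. A match or its absence describes these letters only.

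Of the 44 genes, 31 were well above background on all 3 arrays of 1 or both genotypes and were tested, while 7 did not reach that level on any array. The remaining 6 were measured on some arrays only. In limma's fit over all 19755 features, 0 of the 31 passed an adjusted p of 0.05, where 0.162% of all features did, and their adjusted p ran from 0.223 to 0.999. Before adjustment 8 had a p under 0.05, 7 of them lower in the labelled knockout tumours, where 13.2% of all features had such a p and 5.36% had it with a lower value. At least a 2-fold difference with an unadjusted p under 0.05 was seen for 2, Fzd3 and Fzd4, against 4.42% of all features. That count was 0 without labelled knockout tumour 3, 0 without labelled wild-type tumour 1 and 8 without labelled wild-type tumour 2. In this last setting the features past the adjusted threshold also rose over the whole array, to 120 of 19755 from 32 with all 6 tumours.

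The median difference of the 31 genes, labelled knockout minus labelled wild-type, was -0.03 on the log2 scale, beside 0.02 for all features. The genotypes did not overlap for 7 of the 31, or 22.6%, close to the 19.5% of all features. Without labelled knockout tumour 2 it was 13 of 31, or 41.9%, against 25.3% of all features. Without labelled wild-type tumour 1, 2 or 3 it was 11 of 31, or 35.5%, against 29.0%, 38.4% and 28.5% of all features. By role, the median was -0.29 for the 14 tested receptors and co-receptors and 0.21 for the 13 tested Wnt ligands. The receptor and co-receptor median was -0.13 with normexp background correction and -0.07 over probes well above background on all 6 arrays. A split of this role that was not planned gave -0.61 for the 10 Frizzleds (-0.25 with normexp background correction). It gave -0.00 for the tested co-receptors Lrp5, Lrp6, Ror2 and Ryk. The ligand median was -0.02 without labelled knockout tumour 3, 0.12 without labelled knockout tumour 2, 0.13 without labelled wild-type tumour 2, 0.14 without labelled wild-type tumour 3, 0.096 with array weights and 0.094 over probes well above background on all 6 arrays. With 3 tumours against 3, an exact permutation test of a single gene cannot give a p below 0.1.

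**Figure D1:**
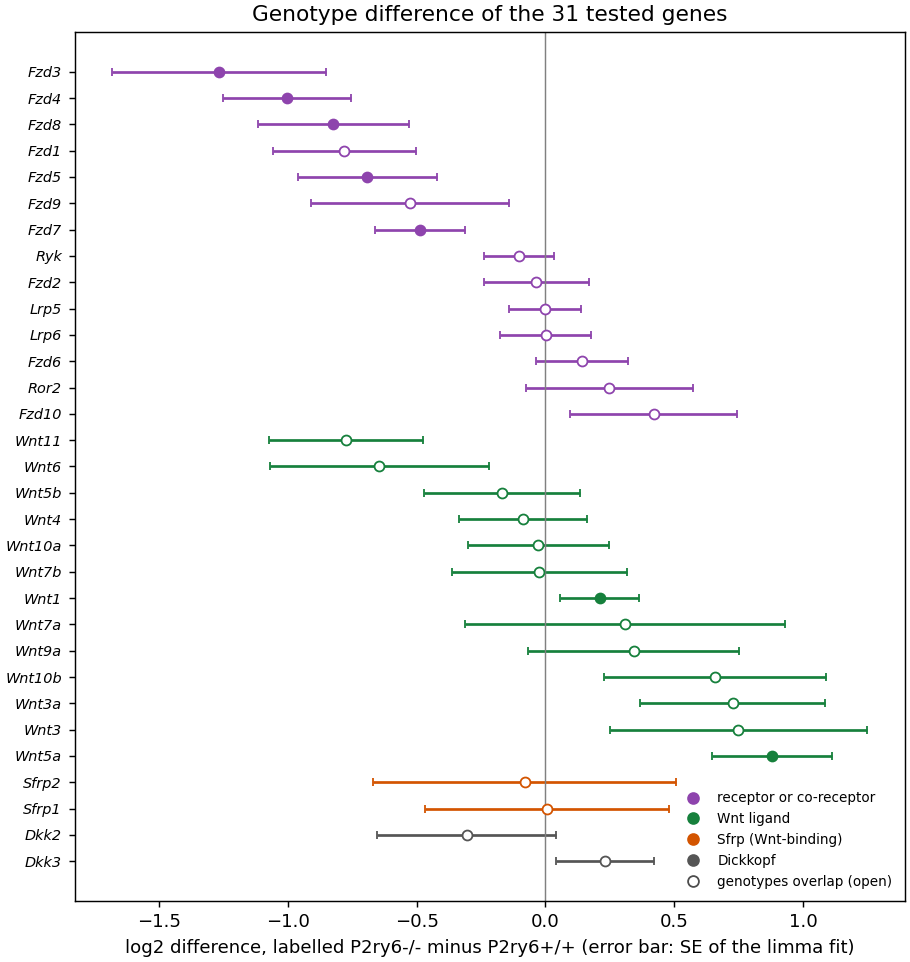
Log2 difference of the 31 tested genes, labelled P2ry6-/- minus labelled P2ry6+/+ tumours, with the SE of the limma fit as error bar; filled points are genes whose genotypes did not overlap and open points genes whose genotypes did. Of the Frizzleds 8 of 10 lie left of 0, from -1.27 for Fzd3 to -0.04 for Fzd2, while Wnt5a lies furthest right at 0.88.

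No Frizzled gene passed the adjusted threshold. Of the 10, 8 read lower and 2 higher, and 5 of the lower ones (Fzd3, Fzd4, Fzd5, Fzd7 and Fzd8) did not overlap between genotypes, where 7.36% of all features were lower without overlap. Fzd5 and Fzd9, both among the 8, entered the test only through the labelled wild-type tumours, in which they read higher (measured in 2 of 3 labelled knockout and 3 of 3 labelled wild-type tumours). Of the 8 Frizzleds well above background on all 6 arrays, 6 read lower and 4 of these did not overlap, with a median of -0.63. The count of lower ones was also 8 under normexp background correction, quantile normalization, median centring and the series value table. Under normexp 4 did not overlap, with Fzd1 among them and without Fzd3 and Fzd5, where 21.3% of all features did not overlap in either direction. Without labelled knockout tumour 1, labelled knockout tumour 3 or labelled wild-type tumour 1, 7 of 10 were lower.

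Fzd4, which also serves as the receptor for the non-Wnt ligand norrin in retinal vessels, had the smallest p of the set. It read 0.08, -0.76 and -0.65 in the labelled knockout tumours and 0.69, 0.54 and 0.44 in the labelled wild-type tumours. The lowest wild-type value stood above the highest knockout value, and labelled knockout tumour 1 lay apart from the other knockout tumours. The means were -0.45 ± 0.46 and 0.56 ± 0.12 (SD, n = 3 each), and the difference was -1.003 (SE 0.25, limma adjusted p = 0.223), which is 2.00-fold lower.

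A second Fzd4 probe lies further along chromosome 7 (96561419 to 96561478, where the first lies at 96557478 to 96557537, both mm9). It gave -0.46, -1.22 and -1.10 in the labelled knockout tumours and 0.19, 0.02 and 0.10 in the labelled wild-type tumours. At both probes knockout tumours 2 and 3 were lowest and wild-type tumour 1 highest. With the second number of the slide position as a block, which rests on labelled knockout tumour 1 and labelled wild-type tumour 3 alone, the Fzd4 difference was -0.37 (limma adjusted p = 0.665; 0.0988 to 0.665 over the alternatives). Within the first position number it was -0.88 and -1.21.

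Fzd3, a receptor of planar cell polarity in neurons, showed the widest difference of the Frizzleds but on a dim probe. Its values were -2.38, -2.46 and -3.10 in the labelled knockout tumours and -1.04, -2.28 and -0.82 in the labelled wild-type tumours. Labelled wild-type tumour 2 lay just above the knockout tumours and far below the other wild-type tumours. The difference was -1.27 (SE 0.41, limma adjusted p = 0.297), and it was -0.61 with normexp background correction (adjusted p = 0.356; 0.0711 to 0.596 over the alternatives). Fzd6, the other member of this subfamily, which orients hairs in mouse skin, differed by 0.14 (SE 0.18).

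Fzd5 and Fzd8, near relatives in sequence, both had dim probes. Fzd8 was -2.61, -2.60 and -2.99 in the labelled knockout tumours and -2.15, -2.30 and -1.29 in the labelled wild-type tumours, differing by -0.82 (SE 0.29). Fzd5 was -3.85, -3.40 and -3.16 in the labelled knockout tumours and -3.15, -2.81 and -2.37 in the labelled wild-type tumours, differing by -0.69 (SE 0.27). The Fzd5 groups all but touch, and labelled knockout tumour 1 was not well above background for Fzd5. With normexp the differences were -0.14 for Fzd5, with overlap, and -0.35 for Fzd8, and without labelled wild-type tumour 3 that of Fzd8 was -0.51. A second Fzd5 probe and a second Fzd8 probe were each well above background on 1 of 6 arrays only.

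Fzd1, Fzd2 and Fzd7 form a further subfamily. Fzd7, known from intestinal stem cells, was -0.51, -0.30 and -0.70 in the labelled knockout tumours and -0.15, -0.07 and 0.16 in the labelled wild-type tumours, without overlap and with a difference of -0.49 (SE 0.17). Fzd1 was 0.86, 1.52 and 1.10 in the labelled knockout tumours and 1.97, 1.49 and 2.37 in the labelled wild-type tumours, differing by -0.78 (SE 0.28), and its genotypes overlapped by a narrow margin at labelled knockout tumour 2 and labelled wild-type tumour 2. Fzd2 differed by -0.04 (SE 0.20). For Fzd1, Fzd7 and Fzd8 the limma adjusted p was 0.324, 0.323 and 0.323.

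Fzd10 read 2.44, 2.46 and 2.49 in the labelled knockout tumours and 1.48, 1.88 and 2.77 in the labelled wild-type tumours. The wild-type values spread to both sides of the knockout values, and the difference of 0.42 (SE 0.32, limma adjusted p = 0.629) turned to -0.33 with the second slide number as a block (adjusted p = 0.749; 0.277 to 0.899 over the alternatives). It was 0.14 without labelled wild-type tumour 1 and 0.78 without labelled wild-type tumour 3. The genotypes did not overlap in the latter setting, where 28.5% of all features did not. Fzd9 differed by -0.52 (SE 0.38), with labelled knockout tumour 3 not well above background.

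The co-receptors that share in beta-catenin signalling hardly differed in mean at their brightest probes. Lrp6 read 2.30, 2.60 and 2.62 in the labelled knockout tumours and 2.40, 2.38 and 2.73 in the labelled wild-type tumours, differing by 0.00 (SE 0.18, limma adjusted p = 0.999), and its sign turned with the setting. A second, dimmer Lrp6 probe gave -2.10, -2.17 and -1.80 in the labelled knockout tumours and -1.95, -1.58 and -1.68 in the labelled wild-type tumours. Its difference was -0.29, with overlap. Lrp5 averaged 0.91 in both genotypes, with a difference of -0.00 (SE 0.14). Ryk, a Wnt-binding receptor related to tyrosine kinases, read 4.18, 4.25 and 4.14 in the labelled knockout tumours and 4.33, 4.33 and 4.21 in the labelled wild-type tumours, differing by -0.10 (SE 0.14, adjusted p = 0.794).

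Ror2, a receptor for Wnt5a, differed by 0.25 (SE 0.32), and Ror1 was well above background in 1 of 3 labelled knockout tumours and 2 of 3 labelled wild-type tumours and was not tested. The SE of Lrp5, Lrp6 and Ryk, 0.14 to 0.18, was among the smaller ones of the set. For these genes a p that misses the threshold does not show that the genotypes are alike.

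**Figure D2:**
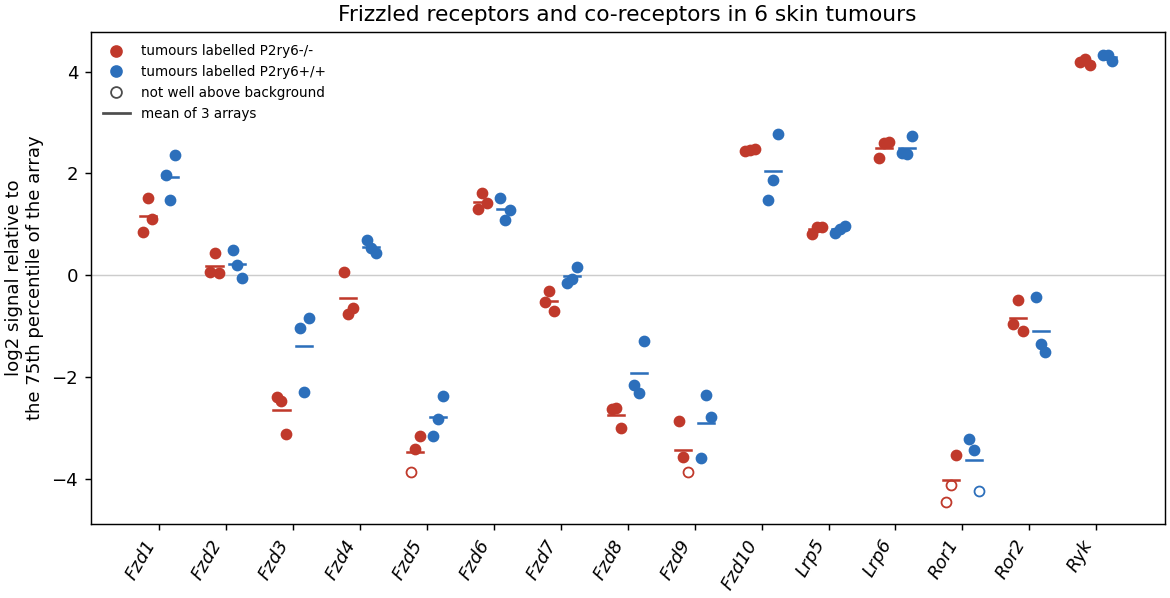
Log2 signal relative to the array's 75th percentile for the 10 Frizzleds and the 5 co-receptors, one point per tumour, tumours labelled P2ry6-/- in red at the left of each gene and P2ry6+/+ in blue at the right; open points were not well above background and lines are means of 3. Fzd3, Fzd4, Fzd5, Fzd7 and Fzd8 show no overlap, while Lrp5, Lrp6 and Ryk lie at nearly the same height in both; heights of different genes are of different probes and are not an order of abundance.

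Markers of several cell types also differed in mean between the genotypes, some lower and some higher in the labelled knockout tumours. Beside muscle and fat, the 11 tested hair follicle markers averaged -1.94 to 0.22 in the labelled knockout tumours and -0.03 to 3.27 in the labelled wild-type tumours, with 10 of 11 lower and Krt73 measured on none of the labelled knockout arrays. Sebaceous gland markers averaged 0.09 to 1.00 in the labelled knockout tumours and 1.35 to 4.26 in the labelled wild-type tumours, with 7 of 8 lower and Mc5r not well above background in the knockout tumours. Adipoq, Cfd, Plin1 and Retn of the fat list and Actn3, Ckm, Myh2, Myh4 and Tnnc2 of the muscle list were likewise measured on none of the labelled knockout arrays. Apart from Plin1, these genes and Mc5r entered their averages only through the labelled wild-type arrays, where they read higher, as did others of these lists. Endothelial markers averaged -0.30 to 0.20 in the labelled knockout tumours and -0.02 to 0.47 in the labelled wild-type tumours, with 3 of 4 lower. Fibroblast markers averaged 3.48 to 4.59 and 2.77 to 4.38, with 6 of 8 higher in the labelled knockout tumours. Dermal papilla markers averaged -1.83 to -0.80 in the labelled knockout tumours and -0.77 to -0.14 in the labelled wild-type tumours. These averages did not overlap, and 3 of the 5 tested genes were lower. They include Fgf7, measured on none of the labelled knockout arrays, which entered only through the labelled wild-type arrays. Fgf7 read -5.60, -6.16 and -6.20 in the labelled knockout tumours and -2.22, -1.70 and -3.44 in the labelled wild-type tumours. Alpl, Sox2, Crabp1 and Sox18, the others tested, each overlapped between genotypes. Corin was measured on no array of either genotype, and Hhip on 1 labelled wild-type array only. Melanocyte markers averaged -3.56 to -0.09 in the labelled knockout tumours and -1.93 to -0.18 in the labelled wild-type tumours, with 5 of 5 lower. Suprabasal keratinocyte markers averaged 6.15 to 6.68 in the labelled knockout tumours and 5.35 to 6.19 in the labelled wild-type tumours, with 5 of 5 higher. The part of these cell types in the Frizzled values was not tested.

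Among the 13 tested Wnt ligands, Wnt5a was the gene with the smallest p and the widest difference towards higher values in the labelled knockout tumours. Its brightest probe gave 2.74, 2.56 and 2.87 in the labelled knockout tumours and 1.42, 2.23 and 1.88 in the labelled wild-type tumours. Every knockout value lay above every wild-type value, and the knockout tumours were the tighter group. The means were 2.72 ± 0.15 and 1.84 ± 0.41 (SD, n = 3 each), and the difference was 0.88 (SE 0.23, limma adjusted p = 0.237), which is 1.84-fold higher and did not pass.

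Both other Wnt5a probes ran the same way without overlap. One, on chromosome 14 from 29340427 to 29340486 (mm9), gave 1.41, 1.47 and 1.58 in the labelled knockout tumours and -0.24, 1.03 and 0.58 in the labelled wild-type tumours. The other is shown because it crosses a splice junction: its 60 bases span 3963 bases of the genome (29331746 to 29335708), so that it reads spliced Wnt5a RNA.

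Wnt5a junction probe (chr14:29331746-29335708, mm9): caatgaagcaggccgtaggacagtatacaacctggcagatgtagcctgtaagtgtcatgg

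This junction probe gave -2.13, -2.51 and -2.22 in the labelled knockout tumours and -3.69, -2.62 and -4.10 in the labelled wild-type tumours, where 2 of 3 arrays were well above background. It passed the filter only through the labelled knockout arrays, where it read higher, so its lack of overlap cannot serve as support. At all 3 probes labelled wild-type tumour 2 came nearest to the knockout tumours. In tumours that share the first number of the slide position, the brightest probe was higher by 0.42 and 1.22. The adjusted p of Wnt5a was 0.098 to 0.601 over the alternatives.

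Wnt11, like Wnt5a a ligand of polarity signalling, ran the other way. It read -3.02, -2.35 and -3.20 in the labelled knockout tumours and -1.92, -1.78 and -2.54 in the labelled wild-type tumours, and labelled knockout tumour 2 lay above labelled wild-type tumour 3. The difference was -0.77 (SE 0.30, limma adjusted p = 0.355), -0.27 with normexp (adjusted p = 0.492) and -0.48 with the second slide number as a block (adjusted p = 0.767; 0.225 to 0.767 over the alternatives). A second, dimmer Wnt11 probe was measured in 0 of 3 labelled knockout tumours and 2 of 3 labelled wild-type tumours. Its values were -4.68, -4.49 and -4.24 in the labelled knockout tumours and -2.98, -3.14 and -4.12 in the labelled wild-type tumours. Labelled wild-type tumour 3, at -4.12, was not well above background, so no fold is given.

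Wnt3, Wnt3a and Wnt10b, ligands that signal through beta-catenin, each read higher in mean in the labelled knockout tumours, with overlap. Wnt3a was -0.24, -0.45 and 0.35 in the labelled knockout tumours and -1.52, -0.29 and -0.71 in the labelled wild-type tumours. Wnt3 was -0.94, -0.44 and 0.13 in the labelled knockout tumours and -1.16, -0.23 and -2.10 in the labelled wild-type tumours. For Wnt3a, Wnt3 and Wnt10b labelled wild-type tumour 2 was the highest wild-type tumour and lay among the knockout values.

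The differences were 0.73 (SE 0.36) for Wnt3a, 0.75 (SE 0.50) for Wnt3 and 0.66 (SE 0.43) for Wnt10b, with limma adjusted p of 0.445, 0.570 and 0.562. Without labelled wild-type tumour 2 they were 1.00, 1.22 and 1.06, with no overlap between genotypes. That tumour is the one that overlapped, so its removal cannot serve as support, and 38.4% of all features did not overlap there. With each other tumour left out, Wnt10b differed by 0.38 (without labelled wild-type tumour 1) to 0.995 (without labelled knockout tumour 1). Wnt1, a ligand of the embryonic brain, did not overlap either, but the nearest values of the 2 genotypes were both -1.33, and the difference was 0.21 (SE 0.15).

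The ligands with the brightest probes showed no separation of the genotypes. Wnt4, known in skin and in kidney and ovary development, read 5.08, 4.48 and 5.12 in the labelled knockout tumours and 5.34, 4.76 and 4.84 in the labelled wild-type tumours, differing by -0.09 (SE 0.25, limma adjusted p = 0.911). Wnt10a, which is mutated in human disorders of teeth, hair and sweat glands, read 4.10, 4.13 and 4.50 in the labelled knockout tumours and 4.15, 3.85 and 4.81 in the labelled wild-type tumours, differing by -0.03 (SE 0.27, adjusted p = 0.978). In both genes the groups overlapped, and the sign turned under other settings.

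The other tested ligands, Wnt5b, Wnt6, Wnt7a, Wnt7b and Wnt9a, differed by -0.65 (Wnt6) to 0.34 (Wnt9a) with overlap. Wnt7a, dim on the array, had the widest SE of the whole set at 0.62, with labelled knockout tumour 3 at -1.55 and the other knockout tumours at -3.76 and -3.10. Wnt2b, Wnt8a, Wnt8b and Wnt9b were measured on 0 of 6 arrays. Wnt16 was well above background in 0 of 3 labelled knockout tumours and 1 of 3 labelled wild-type tumours, and Wnt2 in 2 of 3 of each.

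**Figure D3:**
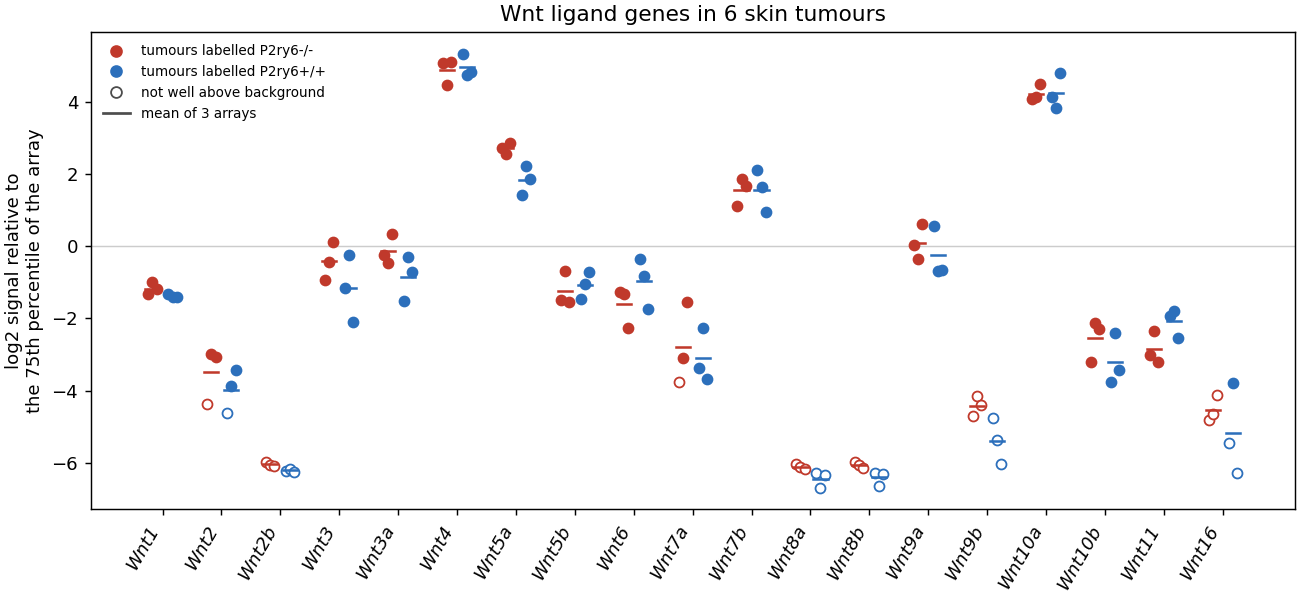
Log2 signal relative to the array's 75th percentile for the 19 Wnt ligand genes, one point per tumour, tumours labelled P2ry6-/- in red at the left of each gene and P2ry6+/+ in blue at the right; open points were not well above background and lines are means of 3. The 3 red Wnt5a points, 2.56 to 2.87, lie above the 3 blue ones, 1.42 to 2.23, whereas Wnt4 and Wnt10a are mixed.

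Of the secreted antagonists that bind Wnts, Sfrp1 and Sfrp2 were measured on all 6 arrays and differed little in mean. Sfrp1 read 0.22, 0.76 and 0.92 in the labelled knockout tumours and -0.09, 0.27 and 1.70 in the labelled wild-type tumours, with labelled wild-type tumour 3 highest and the rest mixed. The difference was 0.01 (SE 0.47, limma adjusted p = 0.996), with a sign that turned with the setting.

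Sfrp2, a gene of fibroblasts, read -1.52, -0.23 and -0.82 in the labelled knockout tumours and -1.15, 0.47 and -1.65 in the labelled wild-type tumours. Tumour 2 was the highest of its genotype on both sides, as it was for the fibroblast markers, at 4.59 in labelled knockout tumour 2 and 4.38 in labelled wild-type tumour 2. The difference was -0.08 (SE 0.59, limma adjusted p = 0.969), and it was 0.54 without labelled wild-type tumour 2 (adjusted p = 0.514; 0.514 to 0.982 over the alternatives). The part of fibroblast content was not tested.

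Wif1, Sfrp4 and Sfrp5 were visible in some tumours only and were not tested in the fit; their description was chosen after the values were seen. Wif1 read -6.05, -1.96 and -6.21 in the labelled knockout tumours and -2.15, -1.06 and -4.68 in the labelled wild-type tumours. It was well above background in labelled knockout tumour 2 and labelled wild-type tumours 1 and 2, and not in the others, so the genotypes overlapped widely. Hair follicle markers averaged -1.94, 0.22 and -1.75 in the labelled knockout tumours and 2.04, 3.27 and -0.03 in the labelled wild-type tumours, so those with Wif1 were the 3 with the highest hair follicle averages. Hair follicle content as a part of the Wif1 values was not tested.

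Sfrp4 read -6.10, -5.54 and -6.24 in the labelled knockout tumours and -4.59, -2.43 and -5.40 in the labelled wild-type tumours. Sfrp5 read -6.01, -4.38 and -6.12 in the labelled knockout tumours and -4.15, -2.54 and -4.39 in the labelled wild-type tumours. For both genes labelled wild-type tumour 2 alone was well above background, and labelled knockout tumour 2 was the highest of the knockout tumours. With no filter on dim probes, Sfrp4 and Sfrp5 differed by -1.82 and -1.81 and Wif1 by -2.11, each with a limma adjusted p of 0.312 to 0.388. Frzb was not well above background on any array.

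**Figure D4:**
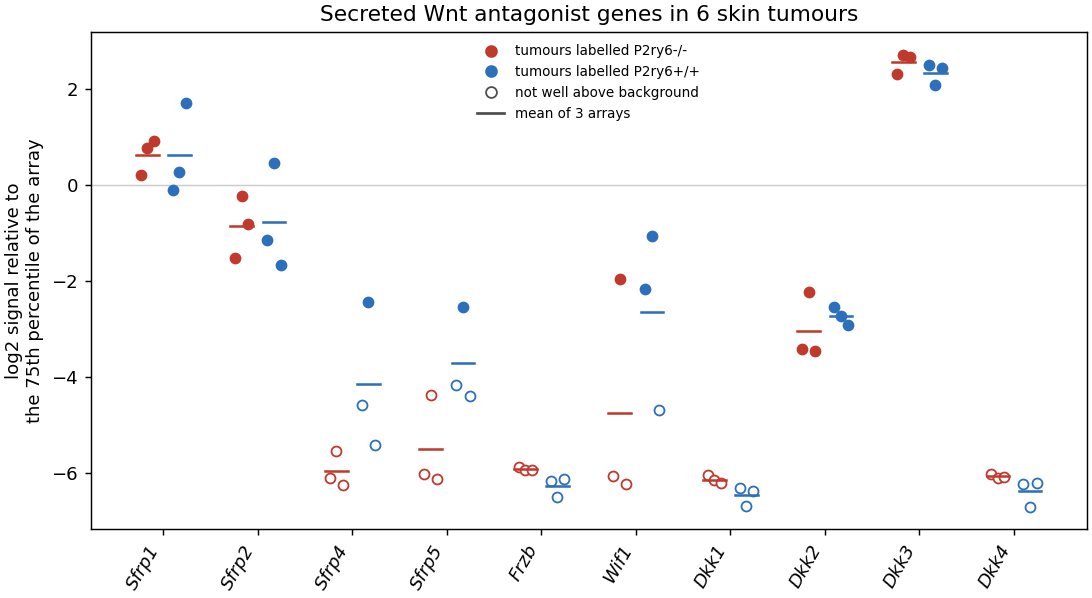
Log2 signal relative to the array's 75th percentile for the 10 secreted antagonist genes, one point per tumour, tumours labelled P2ry6-/- in red at the left of each gene and P2ry6+/+ in blue at the right; open points were not well above background and lines are means of 3. Only Sfrp1, Sfrp2, Dkk2 and Dkk3 have filled points for all 6 tumours, and their genotypes overlap.

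**Figure D5:**
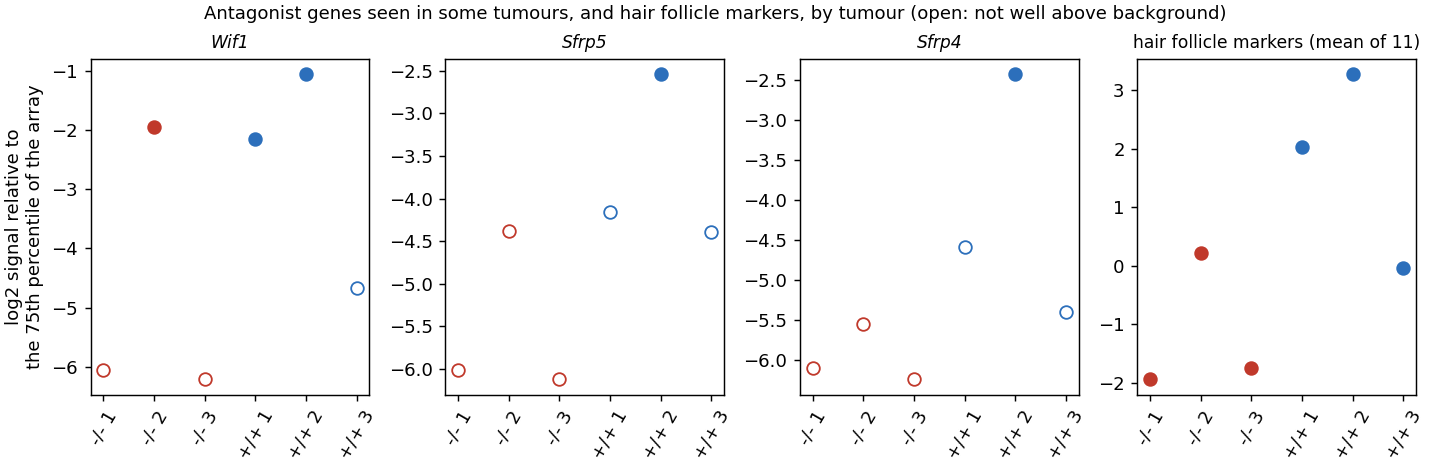
Log2 signal relative to the array's 75th percentile, by tumour, of Wif1, Sfrp5 and Sfrp4 and of the mean over 11 hair follicle markers, with a vertical scale of its own in each panel; red points are tumours labelled P2ry6-/- and blue ones P2ry6+/+, open where the probe was not well above background. Labelled wild-type tumour 2 is highest in each panel, and labelled knockout tumour 2 is the highest of its genotype in each.

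Both tested Dickkopf genes overlapped between genotypes at their brightest probe. Dkk3, a family member that does not block Lrp6 in the way Dkk1 does, read 2.32, 2.71 and 2.67 in the labelled knockout tumours and 2.49, 2.07 and 2.44 in the labelled wild-type tumours, differing by 0.23 (SE 0.19, limma adjusted p = 0.656). A second Dkk3 probe, higher by 0.17 in the labelled knockout tumours, did not overlap, at 0.79, 0.74 and 0.78 against 0.62, 0.63 and 0.56. Dkk2 read -3.40, -2.23 and -3.46 in the labelled knockout tumours and -2.54, -2.72 and -2.92 in the labelled wild-type tumours. For Dkk2 the knockout values lay on both sides of the wild-type ones, and the difference was -0.31 (SE 0.35, adjusted p = 0.752). It was -0.71 without labelled knockout tumour 2 (adjusted p = 0.435, and 0.435 to 0.996 over the alternatives). The Dkk2 genotypes did not overlap there, where 25.3% of all features did not. The difference was -0.12 without labelled knockout tumour 1 and -0.09 without labelled knockout tumour 3. Dkk1 and Dkk4 were measured on 0 of 6 arrays.

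For the 7 genes at background everywhere, the labelled knockout value was higher in mean for 7 of 7, by a median of 0.34, with labelled knockout values of -6.21 to -4.16 and labelled wild-type values of -6.70 to -4.76. The 75th percentile that was subtracted was 277.1 to 299.6 signal units on the labelled knockout arrays and 322 to 368 on those labelled wild-type. The widest of these differences was 0.96, for Wnt9b. With no array well above background, these values are not levels of the genes, and the cause of the differences was not tested.

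Genes further along the pathway were read from a list of 48 other Wnt pathway genes. Of the 42 that were tested, 0 passed the adjusted threshold, 2 were higher and 4 lower at an unadjusted p under 0.05, where 13.2% of all features had such a p, and the median difference was 0.11. Porcn, which attaches the lipid to Wnts, differed by -0.04 (SE 0.21) and Wls, which carries Wnts to the cell surface, by 0.22 (SE 0.17). Tcf7, a nuclear partner of beta-catenin, read -1.52, -1.21 and -1.73 in the labelled knockout tumours and -0.38, -0.85 and -0.29 in the labelled wild-type tumours. The Tcf7 groups did not overlap, and the difference was -0.98 (SE 0.22, limma adjusted p = 0.201).

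Tcf7l1, of the same family, differed by -0.55 (SE 0.22). In the cytoplasm, Dvl1 and Dvl3, which relay the signal from Frizzleds, ran in opposite directions without overlap, Dvl1 by -0.55 (SE 0.18, limma adjusted p = 0.295) and Dvl3 by 0.53 (SE 0.19, adjusted p = 0.317). Lgr4, a receptor for R-spondins, differed by -0.77 (SE 0.30, adjusted p = 0.356), without overlap. Lgr5, a hair follicle stem cell gene and R-spondin receptor, read -4.10, -1.22 and -5.63 in the labelled knockout tumours and -0.80, -1.77 and -2.48 in the labelled wild-type tumours. As for Wif1, labelled knockout tumour 2 stood apart from the other knockout tumours.

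Other list members with the smallest p of their groups were Kremen2, a Dickkopf receptor, at 0.43 (SE 0.19), the extracellular matrix-linked modulator gene Cthrc1 at 1.14 (SE 0.68), and the polarity genes Prickle2 at 0.77 (SE 0.31) and Scrib at 0.38 (SE 0.16). Their limma adjusted p ran from 0.368 for Prickle2 to 0.530 for Cthrc1. Notum, an enzyme that removes the lipid from Wnts, differed by 0.21 (SE 0.21). Ctnnb1, which encodes beta-catenin and, like Porcn, is named outside the smallest-p rule, differed by -0.10 (SE 0.19).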

How the data were processed

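Gene expression was measured on 6 one-colour Agilent arrays (Cy3), all on 1 slide. The authors deposited each spot's intensity as its processed signal, made with spatial and multiplicative detrending switched on and with surrogate values for dim spots, per the file headers. The submitters' processing notes name Agilent Feature Extraction 10.7.1.1. The deposited series table holds log2 values with 1 common median (4.969; r with the processed signal at least 0.99945); its scaling stays unknown. Probe positions are on mm9, per the file headers.

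Outlier spots (68 to 184 per array) were left out, 0 spots were saturated, log2 signals were averaged per probe, and the array's 75th percentile over probes was subtracted. Probes well above background on every array of a genotype were kept (29726 of 56605), with the brightest probe per gene. Of the member genes, 8 had several kept probes, which gave 1 direction in 6 but not in Lrp5 and Lrp6. Both Lrp5 probes differed by 0.00 in size, whereas Lrp6 differed by 0.00 at the brightest probe and by -0.29 at the second. Names came from RefSeq (GRCm38.p6) by accession (32994 probes), symbol (10224) or synonym (520). Genotypes were compared with limma 3.58.1 in R 4.3.3, two-sided, Benjamini-Hochberg adjusted over all features, and the fit was tested on simulated data. Other background corrections, scalings, filters, weights, blocks and 1 tumour left out were tried. The number of arrays limits the precision. Genes given in full are, per role, the 3 brightest, the 2 with the smallest p, and those past 2-fold with an unadjusted p under 0.05; of the other pathway genes, up to 2 per list with the smallest p; others were chosen after their values were seen. Members and lists were chosen with earlier results of these data known. Protein sequences named in the plan were not used here. The position of an array on the slide was taken from the header; which of its numbers is the column is not stated there, and the first was used as the column.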

Additional observations from a re-analysis of the deposited data

How the results depend on the processing

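No member passed the adjusted threshold in any of the 18 alternatives. The median difference of the members stayed within the spread between arrays (SD 0.09) in all of them. Quantile normalization, median centring, trend and robust settings and the mean over a gene's probes kept every count within 1.5 times. The count without overlap is read from the values and not from the fit, so trend and robust settings, array weights and blocks could not change it. Trend and robust settings could not change the median difference either. Members past an unadjusted p of 0.05 and 2-fold (2) numbered 0 with normexp, 1 in the series value table, 5 with array weights, 4 with the second slide number as a block (chosen after seeing the data), 4 with no filter on dim probes, where Sfrp4 and Sfrp5 entered the test, and 0 to 8 with 1 tumour left out. Members without overlap (7) numbered 15 with no filter, where 44 genes were tested. That was 34.1%, below the 37% of all features in that setting. With 1 tumour left out, where fewer values have to separate, they numbered 7 to 13, or 22.6% to 41.9%. The share of all features was 25.3% to 38.4% there. The r of deviations was 0.063, 0.256 and 0.144 for same-numbered tumours and -0.198 to 0.097 for differently numbered ones. So few r do not settle whether replicate numbers pair the samples. The replicate block left the count past the adjusted threshold at 0 and that past 2-fold at 2. It moved the calls over all features to 5, against 32 without it (0 to 120 over all alternatives).

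Differences near 0 turned sign: Lrp6 with normexp (-0.059), median centring (-0.042), the mean over probes (-0.14) and the second slide number (-0.43); Sfrp1 with normexp (-0.043), median centring (-0.035) and the second slide number (-1.48); Dkk2 with normexp (0.0031); Wnt10a with array weights (0.0017) and the slide column (0.14); Sfrp2 with array weights (0.28) and the second slide number (0.13); and Wnt4 with the slide column (0.022) and the second slide number (0.24). Fzd10 and Dkk3 turned with the second slide number (-0.33 and -0.12). With 1 tumour left out, Lrp6 lay between -0.060 and 0.11, Sfrp1 between -0.35 and 0.55, Sfrp2 between -0.52 and 0.54, Wnt4 between -0.20 and 0.12 and Wnt10a between -0.24 and 0.24. The cause was not tested. Dim probes limit Fzd3, Fzd5, Fzd8, Fzd9, Wnt7a, Wnt10b, Wnt11 and Dkk2.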
